A study of Mus musculus with 12 samples.

Results

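The genes described here are 36 genes of the cell cycle and of proliferation, measured in mouse liver in 2 genotypes with and without dexamethasone. They were chosen by name: cyclins and cyclin-dependent kinases, CDK inhibitors, the transcription factors E2f1 and Foxm1, genes of DNA replication and nucleotide supply, and genes of mitosis. A gene was taken as measured if a probe set of the array carried its symbol and no other, and of several such probe sets the one with the highest mean over the arrays was used. By this rule 35 of the 36 were measured, out of 19937 genes in all, and Ccnb1 had no such probe set. The filter on low values, which asked for a value above the 20th percentile of the array in at least 3 of the 12 arrays, was passed by 33 of the 35 and by 17904 of all genes. Bub1 and Cenpe did not pass it.

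Whole livers of male C57Bl/6 mice were profiled with Affymetrix arrays that cover whole transcripts, each animal on its own array. Both genotypes, wild-type and HDAC6 Y/- (males whose single X-linked Hdac6 copy is inactivated), received intraperitoneal injections of vehicle or of dexamethasone at 1 mg/kg over 3 weeks. The 4 groups held 3 different animals each, namely both genotypes under both treatments. Age, the making of the allele and the vehicle are not given in the sources used here. HDAC6 is a mostly cytoplasmic deacetylase whose substrates include tubulin and Hsp90, the chaperone of the glucocorticoid receptor, and dexamethasone is a synthetic ligand of that receptor.

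Most hepatocytes of an adult liver rest outside the cell cycle and can re-enter it after loss of tissue. Mitogens first raise D-type cyclins, which with CDK4 and CDK6 phosphorylate the retinoblastoma protein and free E2F factors. These switch on genes for DNA synthesis, and the genes of mitosis follow later, driven by B-Myb and FOXM1 together with the MuvB complex. In a resting liver the transcripts of mitosis are therefore scarce, while several D-type cyclins, CDKs and CDK inhibitors are present without division. In whole tissue, fewer cells of a type and less RNA per cell cannot be told apart.

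Promoter sequence shows what many of these genes share beyond their expression. Of the 36 genes, 29 had an entry in the RefSeq promoter table (GRCm38.p6), with 31 windows of 250 bases before a start site. Those printed belong to the members with an entry that passed the adjusted threshold in at least 1 comparison (Rrm2, Cdk6, Mcm2) and to Top2a and Mki67, which stood highest in 1 array. Capitals mark the CCAAT box (CCAAT, or ATTGG for the other strand), read by NF-Y, and the CHR element (TTTGAA or TTCGAA, with TTCAAA for the other strand), a site of MuvB complexes. The windows lie at chr12:24708004-24708253 (plus strand) for Rrm2, chr5:3343643-3343892 (plus) for Cdk6 and chr6:88898781-88899030 (minus) for Mcm2. They lie at chr11:99024190-99024439 (minus) for Top2a and chr7:135716380-135716629 (minus) for Mki67.
Rrm2: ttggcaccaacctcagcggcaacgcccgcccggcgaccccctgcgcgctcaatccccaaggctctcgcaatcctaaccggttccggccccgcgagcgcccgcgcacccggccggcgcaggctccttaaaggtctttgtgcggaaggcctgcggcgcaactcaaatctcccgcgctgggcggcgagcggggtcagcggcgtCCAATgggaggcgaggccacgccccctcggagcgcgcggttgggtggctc
Cdk6: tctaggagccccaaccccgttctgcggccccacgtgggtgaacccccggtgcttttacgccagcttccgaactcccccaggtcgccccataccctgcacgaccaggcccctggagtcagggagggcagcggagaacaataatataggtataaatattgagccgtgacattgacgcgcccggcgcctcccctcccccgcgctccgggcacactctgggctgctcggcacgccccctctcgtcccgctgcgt
Mcm2: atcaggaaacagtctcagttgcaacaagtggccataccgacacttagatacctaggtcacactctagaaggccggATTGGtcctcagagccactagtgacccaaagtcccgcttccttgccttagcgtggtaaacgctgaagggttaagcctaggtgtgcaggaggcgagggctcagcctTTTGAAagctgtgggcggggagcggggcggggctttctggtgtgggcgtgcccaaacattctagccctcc
Top2a: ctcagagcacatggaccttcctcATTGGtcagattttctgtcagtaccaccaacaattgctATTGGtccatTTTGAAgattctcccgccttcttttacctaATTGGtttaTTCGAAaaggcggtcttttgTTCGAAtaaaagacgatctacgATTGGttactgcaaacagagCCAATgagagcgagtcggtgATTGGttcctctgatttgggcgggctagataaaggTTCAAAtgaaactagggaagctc
Mki67: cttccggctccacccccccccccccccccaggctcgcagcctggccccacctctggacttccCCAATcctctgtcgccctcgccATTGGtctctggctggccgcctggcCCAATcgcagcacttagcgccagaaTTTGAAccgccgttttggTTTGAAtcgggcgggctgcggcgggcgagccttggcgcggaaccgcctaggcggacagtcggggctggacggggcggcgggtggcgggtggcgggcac
The Top2a window held 6 CCAAT boxes and 4 CHR words, and that of Mki67 held 3 and 2. Rrm2 had 1 CCAAT box, Mcm2 had 1 of each word, and neither word occurred in the Cdk6 window. A CCAAT box was found in 23 of the 31 windows, against 33.8% of the 32851 windows of all genes. A CHR word was found in 9 of 31, against 17.1%. The E2F words TTTCCCGC, TTTCGCGC, TTTGCCGC and TTTGGCGC were found in 5 of 31 windows on either strand (genes Cdk1, Cdk2, Mcm5, Mcm6 and Mcm7), against 1.86%. The word of the glucocorticoid response element, GNACA and TGTNC with 3 bases between them, was found in 0 of 31, against 0.387% of all windows. At so low a share 0 is the likely count for any 31 windows, so it does not set the members apart from other genes. A match of letters is a description of the window and not a measured site.

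The arrays were alike in their overall distribution and differed in what else they held. The medians of the 12 arrays ran from 3.13 to 3.24 on the log2 scale of the deposited intensities, and their 20th percentiles from 2.17 to 2.23. The 14 measured hepatocyte markers averaged 12.4 to 12.5 in each array, which checks the labelled tissue. Hdac6 itself ran from 5.86 to 6.43 in the wild-type arrays and from 3.62 to 4.40 in the knockout arrays, and was 4.22-fold lower under vehicle (limma, adjusted p = 3.70e-05). Transcripts of pancreatic acinar cells were high in 4 arrays, namely knockout vehicle 3, wild-type dexamethasone 3, and the wild-type vehicle arrays 1 and 2. The mean of the 17 acinar genes was 7.32 to 9.29 there and 3.01 to 3.40 in the other 8 arrays, so the main results below are also given without these 4 arrays. A further array, knockout dexamethasone 2, stood apart in the proliferation genes, as described below.

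The members ranged from the level of absent transcripts to well above the middle of the array. Over all 12 arrays, 14 of the 35 measured members lay above the array's median in every array, against 51.8% of the 19937 genes. They were Ccnd1, Ccnd2, Cdk2, Cdk4, Cdk6, Mcm2, Mcm7, Pcna, Rrm1, Rrm2, Tyms, E2f1, Cdkn1b and Cdkn2c. The 7 that lay below it in every array were Ccne2, Aurka, Bub1, Birc5, Kif11, Cenpe and Foxm1. Of the 11 mitosis genes, 0 were above the median in every array, and their means over 12 arrays ran from 2.06 to 3.26. Bub1, a kinase of the spindle checkpoint, and Cenpe, a kinetochore motor, exceeded the 20th percentile in 1 of 12 arrays each. Changes of genes this close to the 20th percentile are compressed on an array, and the levels of different genes are not comparable, because probe sets differ in their response.

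**Figure D1:**
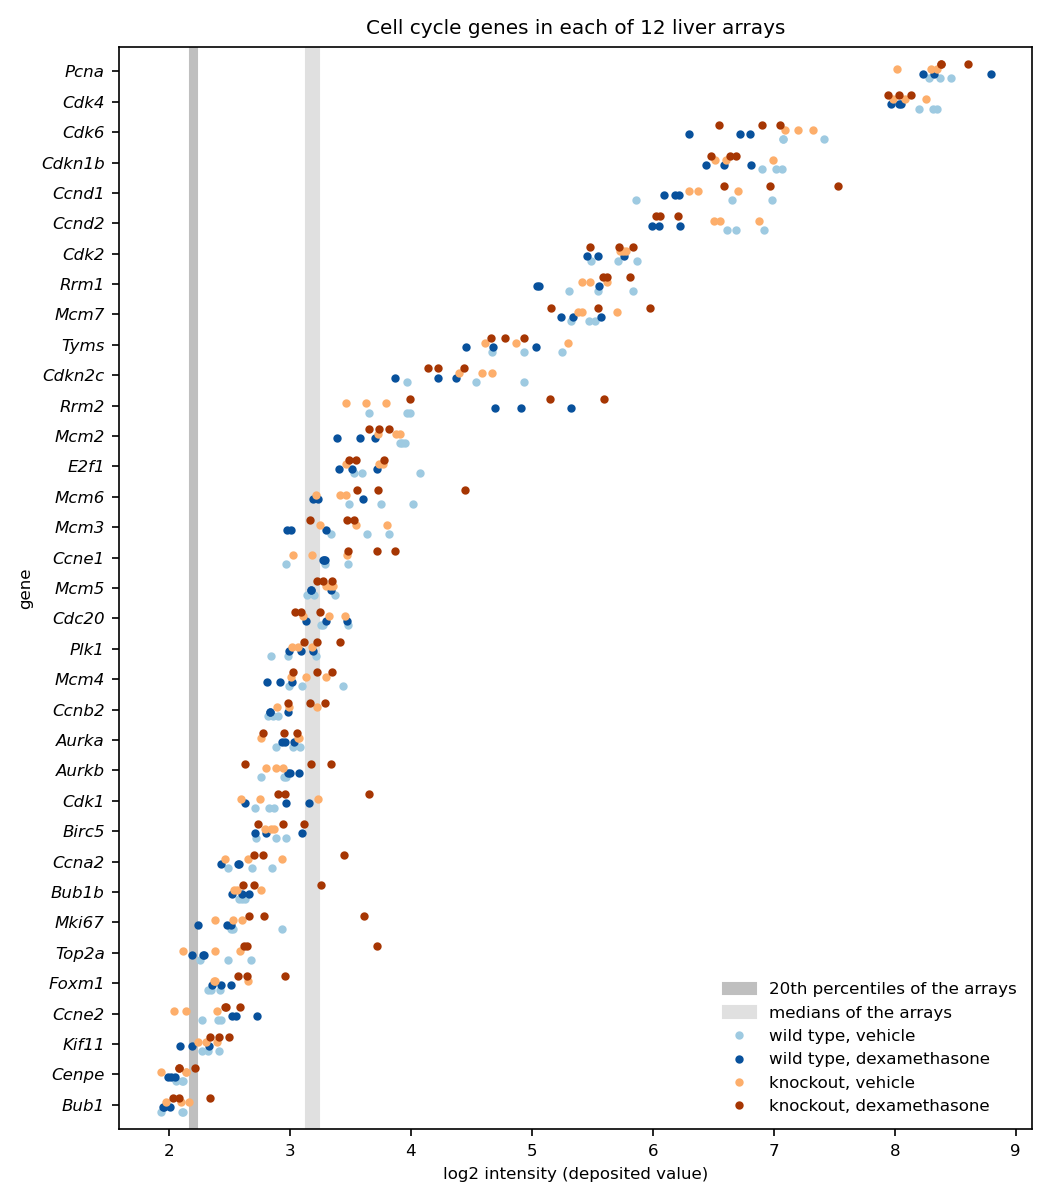
Deposited log2 intensity (horizontal axis) of the 35 measured cell cycle genes (vertical axis) in each of the 12 arrays, 1 point per array, coloured by group. The dark band is the range of the arrays' 20th percentiles (2.17 to 2.23) and the light band that of their medians (3.13 to 3.24); genes are sorted by their mean, which does not rank their abundance, and most mitosis genes lie between or on the bands.

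The first comparison asked how dexamethasone changed these genes in wild-type liver. One member rose and 3 fell: Rrm2 rose 2.15-fold, and Ccnd2, Cdk6 and Mcm2 fell by 0.65, 0.58 and 0.37 on the log2 scale. Those 4 of 33 are 12.1% of the tested members, and the same threshold (adjusted p under 0.05) was passed by 11.5% of all 17904 genes, so the share of members was close to the background. By direction, 4.57% of all genes rose and 6.95% fell. The median change of the members was -0.13, against 0.01 for all genes, and 10 of 33 were above 0, as were 52.1% of all genes. In knockout liver, 2 members passed the threshold, 1 higher (Rrm2) and 1 lower (Ccnd2), or 6.06%, against 8.29% of all genes (4.38% higher, 3.92% lower). There the members' median change was 0.10, against -0.01 for all genes, and 20 of 33 were above 0, as were 47.6% of all genes. This direction was not stable: the median was 0.04 without knockout dexamethasone 2 (18 of 33 above 0), and -0.05 with a filter at the 50th percentile (10 of 22 above 0). Averaged over both genotypes, dexamethasone raised 2 members (Rrm2 and Ccne2) and lowered 3 (Ccnd2, Cdk6 and Mcm2), or 15.2%, against 17.2% of all genes (7.29% higher, 9.94% lower).

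Without the 4 arrays with pancreas transcripts, 0 of the 4 calls in wild type were left (limma; 4 members at an unadjusted p under 0.05), 1 of 2 in the knockout (Ccnd2) and 2 of 5 in the average (Rrm2 and Ccnd2), with 559, 1045 and 1695 calls over all genes against 2064, 1485 and 3085. The median change of the members in wild type was then -0.07. In that setting 1 animal remained in the wild-type vehicle group, assumed to vary like the other groups.

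**Figure D2:**
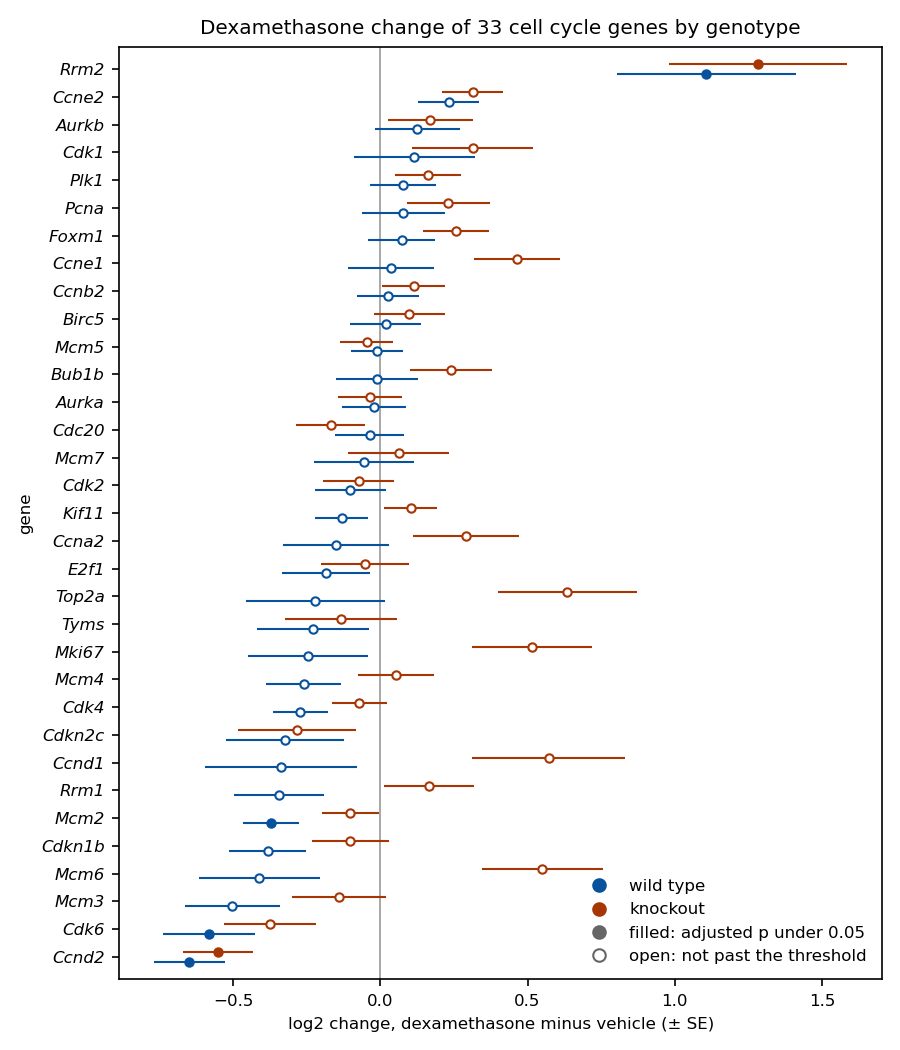
Log2 change from vehicle to dexamethasone (horizontal axis, ± SE from the limma fit, 3 arrays a group) of the 33 tested genes in wild type (blue) and knockout (brown), sorted by the wild-type change. Filled points passed an adjusted p of 0.05: Rrm2 and Ccnd2 in both genotypes, and Cdk6 and Mcm2 in wild type.

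Among the members, the largest change was the rise of Rrm2, the small subunit of ribonucleotide reductase, which makes the deoxynucleotides for DNA synthesis. In wild type its log2 intensity was 3.96, 3.65 and 3.99 with vehicle and 5.33, 4.91 and 4.69 with dexamethasone. In the knockout it was 3.46, 3.80 and 3.63 with vehicle and 3.99, 5.15 and 5.59 with dexamethasone. The treated arrays lay above the vehicle arrays of their genotype without overlap, as in 12.5% (wild type) and 11.7% (knockout) of all genes. Knockout dexamethasone 1, at 3.99, was however little above the vehicle arrays. The group means were 3.87 ± 0.19, 4.98 ± 0.32, 3.63 ± 0.17 and 4.91 ± 0.83 (SD, n = 3 each). The change was 1.11 ± 0.30 (SE) in wild type (limma, adjusted p = 0.0306) and 1.28 ± 0.30 in the knockout, or 2.43-fold (limma, adjusted p = 0.0178). Averaged over genotypes it was 1.20 ± 0.21, or 2.29-fold (limma, adjusted p = 0.00140). The knockout's change exceeded that of wild type by 0.18, with a 95% interval from -0.75 to 1.10, so the 2 genotypes were not shown to differ or to be alike in this response. The wild-type call was lost without any 1 of 5 arrays (wild-type vehicle 1, 2 or 3, wild-type dexamethasone 1 or 2; adjusted p from 0.0543 to 0.119), and the knockout call without any 1 of 4 (knockout vehicle 1 or 3, knockout dexamethasone 2 or 3; 0.0563 to 0.0775). The averaged call was kept in each of these and without the pancreas arrays (adjusted p = 0.0474).

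Rrm1, Tyms and Pcna, which work beside Rrm2 in DNA synthesis, did not pass the threshold for dexamethasone with all arrays. Rrm1, the large subunit of the same enzyme, changed by -0.35 ± 0.15 in wild type (limma, adjusted p = 0.190) and by 0.17 ± 0.15 in the knockout (0.681); without wild-type dexamethasone 1 it passed in wild type as lower (-0.51, adjusted p = 0.0454). Tyms, thymidylate synthase, changed by -0.23 and -0.13, and Pcna, the sliding clamp of DNA polymerase, by 0.08 and 0.23. A second Pcna probe set gave 0.11 in both genotypes.

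The D-type cyclins start the G1 phase, and of them Ccnd2 fell. Its log2 intensity in wild type was 6.92, 6.69 and 6.61 with vehicle and 6.05, 5.99 and 6.23 with dexamethasone. In the knockout it was 6.50, 6.56 and 6.88 with vehicle and 6.02, 6.06 and 6.21 with dexamethasone. All 6 treated arrays lay below all 6 vehicle arrays, as in 4.47% of all genes. The change was -0.65 ± 0.12 (SE, 3 arrays a group) in wild type (limma, adjusted p = 0.00326) and -0.55 ± 0.12 in the knockout (limma, adjusted p = 0.0109), and their difference was 0.10 (95% interval -0.27 to 0.46). The average was -0.60 ± 0.08 (limma, adjusted p = 0.000222). Of the members tested, Ccnd2 had the smallest adjusted p in the average. It missed the threshold in wild type without the pancreas arrays (-0.59, adjusted p = 0.0561) and in the knockout without knockout vehicle 3 (-0.44, adjusted p = 0.0526).

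Cdk6, a kinase that D-type cyclins activate, fell in wild type. Its values there were 7.08, 7.41 and 7.08 with vehicle and 6.30, 6.72 and 6.80 with dexamethasone; in the knockout they were 7.20, 7.32 and 7.09, then 7.05, 6.90 and 6.55. In each genotype the treated arrays were below the vehicle arrays without overlap, as in 14.5% (wild type) and 12.6% (knockout) of all genes. The change was -0.58 ± 0.16 in wild type (limma, adjusted p = 0.0285) and -0.37 ± 0.16 in the knockout (limma, adjusted p = 0.206), and the average was -0.48 ± 0.11 (limma, adjusted p = 0.00801). The difference between genotypes was 0.21 ± 0.22 (limma, adjusted p = 0.929), so Cdk6 was not shown to respond differently. The wild-type call was lost on leaving out array 2 of the wild-type vehicle group (adjusted p = 0.105) or array 1 of the wild-type dexamethasone group (0.117), and the averaged call without the pancreas arrays (0.0639). Cdk4, the other kinase of D-type cyclins, changed by -0.27 ± 0.09 in wild type (limma, adjusted p = 0.0854) and by -0.07 ± 0.09 in the knockout (0.802).

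Of the helicase subunits Mcm2 to Mcm7, which open the DNA at replication origins, 1 of 6 passed the threshold in wild type. Mcm2 was 3.91, 3.93 and 3.95 with vehicle and 3.58, 3.70 and 3.39 with dexamethasone there, groups that did not overlap, and fell by 0.37 ± 0.10 (limma, adjusted p = 0.0234). In the knockout its values were 3.91, 3.88 and 3.73, then 3.73, 3.82 and 3.66, which overlapped, with a change of -0.10 ± 0.10 (limma, adjusted p = 0.691). The difference of these changes was 0.27 ± 0.14 (limma, adjusted p = 0.817). The averaged change was -0.24 ± 0.07 (limma, adjusted p = 0.0281). The wild-type call was lost in 5 of the 12 fits that left out 1 array (wild-type vehicle 1, 2 or 3, wild-type dexamethasone 1 or 3), with adjusted p up to 0.0943, and the averaged call in 6 (wild-type vehicle 3, wild-type dexamethasone 3, knockout vehicle 1 or 2, knockout dexamethasone 1 or 3; up to 0.0718). Without the pancreas arrays the changes were -0.31 in wild type and -0.23 in the average, with adjusted p of 0.332 and 0.138. Mcm3 came next, at -0.50 ± 0.16 in wild type (limma, adjusted p = 0.0619) and -0.14 ± 0.16 in the knockout, and passed in wild type without wild-type vehicle 3 (0.0332) or knockout vehicle 1 (0.0459). The other 4 subunits changed by between -0.41 (Mcm6) and -0.01 (Mcm5) in wild type, and by between -0.05 (Mcm5) and 0.55 (Mcm6) in the knockout, all short of the threshold.

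The E-type cyclins activate CDK2 at the start of S phase. Ccne2 was 2.28, 2.40 and 2.43 with vehicle and 2.73, 2.52 and 2.56 with dexamethasone in wild type. In the knockout it was 2.39, 2.15 and 2.05, then 2.46, 2.59 and 2.47. Each treated array was above every vehicle array, as in 4.29% of all genes, but all 12 values were below the array median. Ccne2 rose by 0.27 ± 0.07 in the average (limma, adjusted p = 0.0195), with 0.23 in wild type (0.193) and 0.31 in the knockout (0.0916), neither past the threshold. Without the pancreas arrays the averaged change was 0.22 (adjusted p = 0.249), and it missed the threshold too without wild-type dexamethasone 1, knockout vehicle 3 or knockout dexamethasone 2 (0.0513 to 0.0544). Ccne1, above the array median in 9 of 12 arrays, changed by 0.46 ± 0.15 in the knockout (limma, adjusted p = 0.0749), with treated arrays at 3.48, 3.72 and 3.87 against 3.18, 3.48 and 3.02, and by 0.04 ± 0.15 in wild type. Leaving out knockout vehicle 2, knockout dexamethasone 1 or wild-type vehicle 1 put Ccne1 past the threshold in the knockout (adjusted p of 0.0380, 0.0452 and 0.0442). Cdk2 changed by -0.10 and -0.07.

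**Figure D3:**
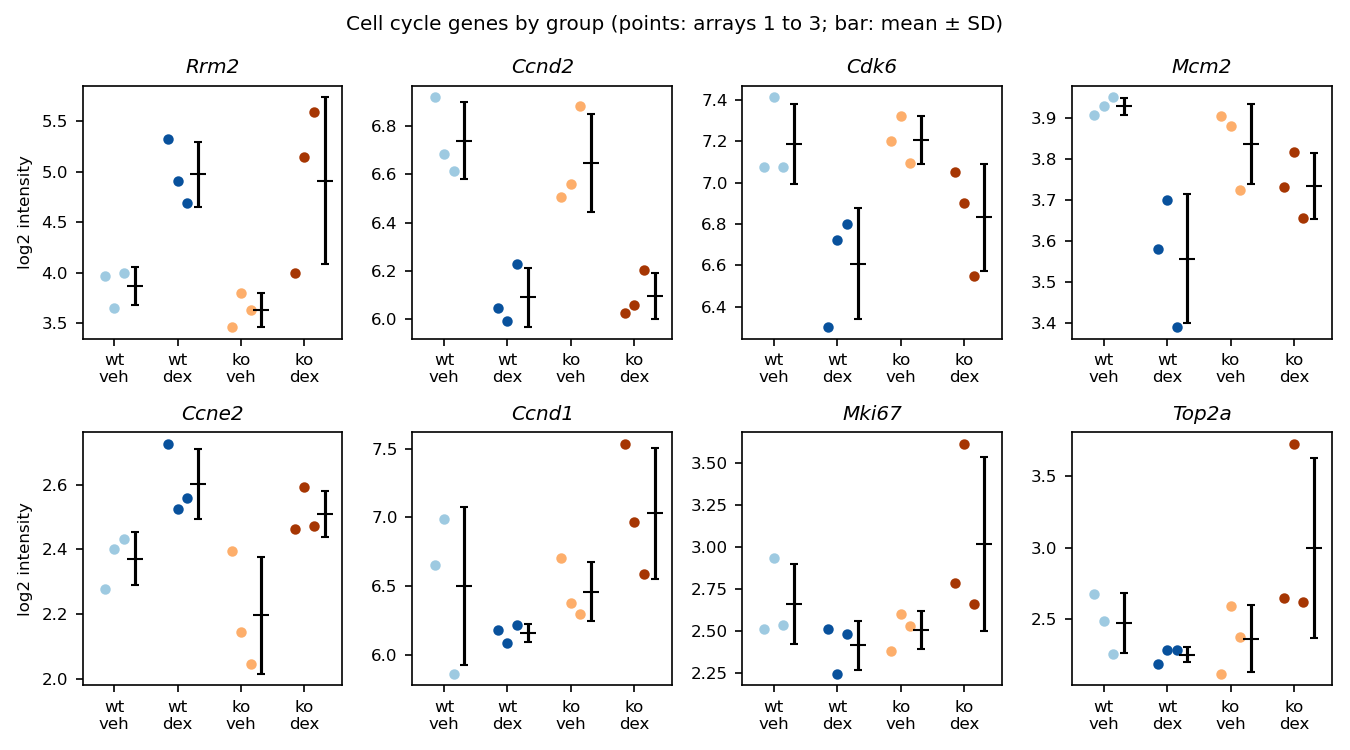
Log2 intensity of 8 cell cycle genes in the 4 groups (wt, wild type; ko, knockout; veh, vehicle; dex, dexamethasone), with points for arrays 1 to 3 in order and bars for the mean ± SD (n = 3); each panel has its own axis, which does not start at 0. Rrm2 is higher and Ccnd2 lower in the treated arrays of both genotypes, and a single knockout dexamethasone array carries the highest Mki67 (3.61) and Top2a (3.72) values.

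The inhibitors of the CDKs and the transcription factors did not pass the threshold for dexamethasone in either genotype with all arrays. Cdkn1b encodes p27, which holds cyclin E and CDK2 inactive. It was 6.90, 7.06 and 7.02 with vehicle and 6.81, 6.44 and 6.59 with dexamethasone in wild type, and 6.60, 6.52 and 6.99, then 6.64, 6.69 and 6.48 in the knockout. The wild-type groups did not overlap and the knockout groups did, with changes of -0.38 ± 0.13 (limma, adjusted p = 0.0821) and -0.10 ± 0.13 (0.796). A second Cdkn1b probe set turned this order, at -0.20 for wild type against -0.55 for the knockout. Cdkn2c, or p18, an inhibitor of CDK4 and CDK6, changed by -0.32 ± 0.20 and -0.28 ± 0.20. Without wild-type vehicle 2 it passed the threshold in wild type (-0.58, adjusted p = 0.0452) and in the average (-0.43, 0.0170), and Cdkn1b passed in wild type without knockout vehicle 3 (0.0421). E2f1, an activator of S phase genes, changed by -0.18 and -0.05, and Foxm1, an activator of mitosis genes, by 0.07 and 0.26; their adjusted p in limma were 0.519, 0.922, 0.774 and 0.239.

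Of the 9 mitosis genes that passed the filter, 0 passed the threshold for dexamethasone in either genotype (limma; 0 and 2 at an unadjusted p under 0.05, the 2 being Mki67 and Top2a in the knockout; the shares of all genes at that level were 23.6% and 18.5%). The changes in wild type ran from -0.25 (Mki67) to 0.13 (Aurkb), and in the knockout from -0.17 (Cdc20) to 0.63 (Top2a, 0.27 without knockout dexamethasone 2). Aurkb passed the threshold in the knockout without knockout dexamethasone 1 (0.38, adjusted p = 0.0466). Cdk1, the kinase of mitotic entry, was 2.87, 2.71 and 2.83 with vehicle and 2.97, 2.63 and 3.16 with dexamethasone in wild type. In the knockout it was 2.75, 3.23 and 2.60, then 2.96, 3.65 and 2.90. These groups overlapped in both genotypes, and the changes were 0.11 and 0.31, each with an SE of 0.21. Its partners Ccna2 and Ccnb2 changed by -0.15 and 0.03 in wild type and by 0.29 and 0.11 in the knockout, none past the threshold.

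The second question was whether the genotype changed these genes. With vehicle, 0 of 33 members passed the threshold between knockout and wild type (limma; 1 at an unadjusted p under 0.05, Cdkn1b, at -0.29), against 0.101% of all genes (7.19% at the unadjusted level). The median difference was -0.03, against 0.00 for all genes, and 0.03 without the pancreas arrays. The Cdkn1b difference depended on the probe set: a second one averaged 4.86 in wild type and 5.05 in the knockout with vehicle. With the mean of a gene's probe sets, 0 members had an unadjusted p under 0.05 in this comparison (limma). With dexamethasone, 0 of 33 passed the adjusted threshold as well, against 0.0279% of all genes. At an unadjusted p under 0.05, however, 11 members were higher in the knockout and 0 lower, where 4.88% of all genes were higher at that level. In 10 members all 3 treated knockout arrays lay above all 3 treated wild-type arrays, and in 0 below; among all genes 6.9% lay wholly above. The median difference was 0.18, against 0.00 for all genes, and 28 of 33 members were above 0, as were 49% of all genes. Without the pancreas arrays the median was 0.15, with 25 of 33 above 0 and 8 members at an unadjusted p under 0.05 (6.88% of all genes in either direction).

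The 11 genes with an unadjusted p under 0.05 came from G1, S phase and mitosis. They were Ccnd1, Ccna2, Ccnb2, Ccne1, Foxm1, Mcm4, Mcm6, Rrm1, Mki67, Top2a and Kif11. The largest difference was that of Ccnd1, the cyclin that mitogens induce, which with dexamethasone was 6.18, 6.09 and 6.22 in wild type and 7.53, 6.97 and 6.59 in the knockout. With vehicle it was 6.65, 6.99 and 5.86 in wild type and 6.71, 6.38 and 6.30 in the knockout, groups that overlapped. The difference under dexamethasone was 0.87 ± 0.26 (limma, adjusted p = 0.357), the smallest adjusted p of the members in this comparison. For Top2a, the topoisomerase that untangles chromosomes before division, it was 0.74 ± 0.24 (limma, adjusted p = 0.396), and for Mki67, the usual marker of cycling cells, 0.61 ± 0.20 (limma, adjusted p = 0.417).

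The difference of the dexamethasone changes, knockout minus wild type, is the test of a response that depends on genotype. It was passed by 0 of 33 members and by 0% of the 17904 genes (limma), with 5 members and 6.19% of all genes at an unadjusted p under 0.05. Those 5 were Mcm6 (0.96 ± 0.29, adjusted p = 0.622 in limma), Ccnd1 (0.91 ± 0.37, 0.759), Top2a (0.86 ± 0.33, 0.754), Mki67 (0.76 ± 0.29, 0.754) and Rrm1 (0.51 ± 0.22, 0.781). The difference was above 0 in 30 of 33 members, with a median of 0.18, and in 50.4% of all genes, with a median of 0.00. Members share arrays, so this count is not made of independent results. Without the pancreas arrays 30 of 33 were above 0 with a median of 0.16, but 1 member (5.07% of all genes) had an unadjusted p under 0.05 in place of 5, and the difference of Ccnd1 was 0.22. Averaged over treatments, 0 members passed for genotype, against 0.0503% of all genes (limma; 3 members at an unadjusted p under 0.05, all higher in the knockout, where 5.33% of all genes were higher at that level).

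One treated knockout stood apart from the other animals. Knockout dexamethasone 2 held the highest of the 12 values for 11 of the 33 members, or 33.3%, and for 7.79% of all genes; no other array held the highest for more than 7 members. In Mki67 the 12 values were 2.51, 2.93 and 2.53 in vehicle and 2.51, 2.24 and 2.48 in treated wild types, then 2.38, 2.60 and 2.53 in vehicle and 2.79, 3.61 and 2.66 in treated knockouts. In Top2a they were, in the same order, 2.68, 2.49 and 2.26, then 2.19, 2.28 and 2.29, then 2.12, 2.59 and 2.38, and last 2.64, 3.72 and 2.62. In both genes the second treated knockout stood apart from the other 11 animals, and all 3 treated knockouts lay above the treated wild types. Top2a was 1.05 above the next highest array there, Mki67 0.68, Ccna2 0.51, and Bub1b, a kinase of the spindle checkpoint, 0.50. In this animal 26 of the 17904 genes (0.145%) were at least 0.5 above the next highest array, and these 4 were among them. The other 22 were in none of the cell cycle lists used here. Among the 22, chosen after their values were seen, were the histone gene H1f5, the PCNA partner Pclaf, the macrophage genes Siglec1 and Fcgr4, and A2m, Prg4 and Fgl1. In each of the other 11 arrays between 5 and 78 genes stood out that far. Of the members 1 did so there, Ccnd1 in knockout dexamethasone 1. A second Top2a probe set, at a mean of 1.76 and below the 20th percentiles, changed by 0.00 in wild type and -0.14 in the knockout.

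**Figure D4:**
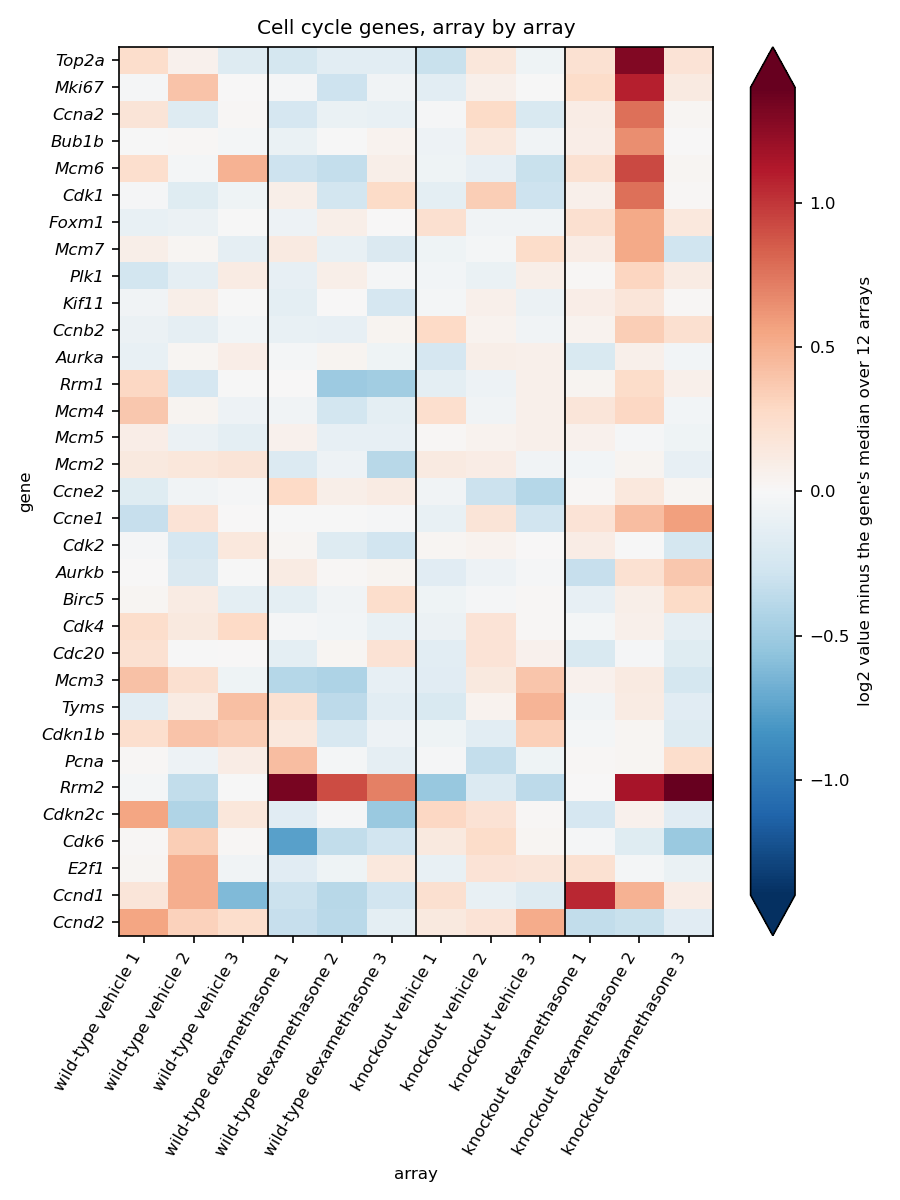
Log2 value of each of the 33 tested genes (rows) minus its own median over the 12 arrays (columns, by group), as colour from blue (lower) to red (higher); the colour scale ends at 1.4, which Rrm2 passes in knockout dexamethasone 3. Rows are sorted by how far knockout dexamethasone 2 lies above the next highest array, from Top2a (1.05) down to Ccnd2, and the upper rows are red in that column.

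Without that array most differences between treated knockouts and treated wild types were still above 0, but smaller. Members share arrays, so their count here is not made of independent results either. The median difference from treated wild types was 0.07, 24 of 33 members were above 0, and 5 members had an unadjusted p under 0.05, as had 6.75% of all genes in either direction. That of Top2a was 0.38, that of Mki67 0.31, that of Mcm6 0.30 and that of Ccna2 0.21. The 33 tested members averaged 4.15 in each of knockout dexamethasone 1 and 3, and 3.99 to 4.06 in treated wild types. With vehicle they averaged 4.13 to 4.18 in wild type and 4.06 to 4.14 in the knockout. The remaining treated knockouts thus lay above treated wild types but within the range of wild types with vehicle. The interaction was above 0 in 26 of 33 members with a median of 0.12, and those of Top2a and Mki67 were 0.49 and 0.47, with 0 members past the adjusted threshold (limma; 4 at an unadjusted p under 0.05, as were 5.07% of all genes). The dexamethasone change in the knockout was 0.27 for Top2a and 0.22 for Mki67 without this array, against 0.63 and 0.52 with it, and neither kept an unadjusted p under 0.05 (0.0877 and 0.147 in limma). The interaction of Cdk1 was 0.20 with the array and -0.04 without it. Across the 12 arrays, with each group's mean taken out, Mki67 correlated with Top2a at 0.82. Over the 11 arrays without this one the correlation was 0.23. Arrays of a group share their animals' genotype and treatment, and the values describe these arrays.

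The mean level of macrophage markers also varied over these groups. The 15 measured markers of Kupffer cells and other macrophages averaged 6.55 to 7.27 per array in wild type with vehicle and 5.66 to 6.08 with dexamethasone. In the knockout they averaged 6.42 to 6.77 with vehicle and 6.26 to 7.12 with dexamethasone, and 7.12 was the mean in knockout dexamethasone 2, below that of wild-type vehicle 1 alone. With dexamethasone 11 of the 15 fell and 1 rose in wild type, while 0 fell and 1 rose in the knockout. Of all genes, 6.95% fell and 4.57% rose in wild type, and 3.92% fell and 4.38% rose in the knockout. In the interaction 0 of the 15 markers passed the threshold (limma), with 9 at an unadjusted p under 0.05, as were 6.19% of all genes. The genotypes were thus not shown to respond differently in these markers. These counts use all arrays, and wild-type vehicle 1 and 2 and wild-type dexamethasone 3 held pancreas transcripts. In the wild-type arrays without such transcripts the markers averaged 6.57 (vehicle 3), 6.03 (dexamethasone 1) and 5.66 (dexamethasone 2). Between treated knockouts and treated wild types 0 of 15 passed the threshold (limma; 12 at an unadjusted p under 0.05, as were 8.75% of all genes), with a median difference of 0.68. Of 16 endothelial markers, 7 fell and 1 rose with dexamethasone in wild type, and 4 fell and 2 rose in the knockout. Of 14 stellate cell and fibroblast markers, 3 fell and 1 rose in wild type, and 1 fell and 1 rose in the knockout. Of 12 B cell and plasma cell markers, 3 fell in wild type and 0 in the knockout. Of the tested markers of bile duct cells, of T and NK cells, and of neutrophils, 0 passed in either genotype. Defining markers of B cells, of T and NK cells, and of neutrophils averaged 2.89 to 3.26, 2.57 to 2.72 and 2.44 to 2.56 per array, and the 11 erythroid genes 3.94 to 4.25. The part of these cells in the results on cell cycle genes was not tested.

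**Figure D5:**
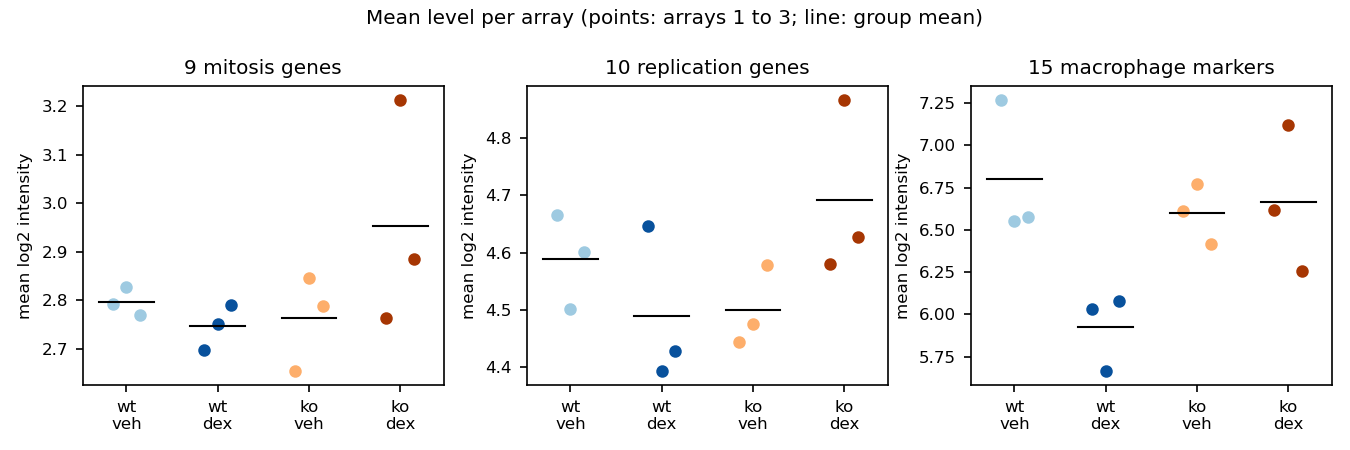
Mean log2 intensity per array (vertical axis, not starting at 0) of the 9 tested mitosis genes, the 10 replication and nucleotide genes and the 15 macrophage markers in the 4 groups (wt, wild type; ko, knockout; veh, vehicle; dex, dexamethasone), with points for arrays 1 to 3 in order and a line for the group mean. Knockout dexamethasone 2 is the highest array for the mitosis (3.21) and replication genes (4.87), and treated wild types are the lowest group for the macrophage markers.

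Other genes of the same machinery were counted in the same way, and the shares to read them against are those of all genes, 4.57% higher and 6.95% lower in wild type and 4.38% and 3.92% in the knockout. Of 44 tested genes of S phase and replication outside the members, 3 rose and 3 fell in wild type, and 5 rose and 3 fell in the knockout, with medians of -0.08 and 0.05. Pola2, the second subunit of DNA polymerase alpha, fell by 1.15 ± 0.15 in wild type (limma, adjusted p = 0.000200) and by 0.73 ± 0.15 in the knockout (0.00630). Gins4, a subunit of the replicative helicase, rose by 0.58 and 0.72, and Usp1, a deubiquitinase of PCNA, by 0.50 and 0.76. Uhrf1 rose by 0.67 and Dnmt1, the maintenance DNA methyltransferase that UHRF1 recruits, fell by 0.50 in wild type. The Uhrf1 means in wild type, 2.43 and 3.10, lay below the range of the arrays' medians (3.13 to 3.24). The histone chaperone Nasp rose by 0.48 in the knockout. Of 65 tested mitosis genes outside the members, 1 rose and 3 fell in wild type and 1 rose and 1 fell in the knockout. Cks2, a subunit of cyclin-dependent kinases, fell by 0.97 ± 0.12 and 0.84 ± 0.12 (limma, adjusted p = 0.000158 and 0.000481). Ube2s, an E2 enzyme of the anaphase-promoting complex, rose by 0.64 and 0.43. In wild type Lmnb1, a lamin, fell by 0.67 and Fbxo5, an inhibitor of that complex, by 0.41. Fbxo5 went from 2.59 to 2.18, and 2.18 lies within the range of the arrays' 20th percentiles (2.17 to 2.23).

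Of 48 tested genes of G1 and CDK control, 4 rose and 3 fell in wild type and 3 rose and 2 fell in the knockout. Btg2, an antiproliferative gene, rose 2.12-fold (1.08 ± 0.25; limma, adjusted p = 0.0132) and 2.77-fold (1.47 ± 0.25; 0.00218). Ccng2, a cyclin linked to arrest, rose by 1.05 ± 0.21 in wild type (limma, adjusted p = 0.00610), where E2f7, a repressor of E2F targets, rose by 0.52 and Cables1 fell by 0.37. Lin52, a MuvB subunit, rose by 0.40 in wild type (limma, adjusted p = 0.0297) and by 0.46 in the knockout. In the knockout Tob2, a relative of Btg2, rose by 0.66 and Klf10 fell by 1.37. Their wild-type means moved the same way short of the threshold, from 4.76 to 5.05 and from 5.35 to 4.57. Averaged over genotypes, Tob2 rose by 0.48 and Klf10 fell by 1.08, both past the threshold. Relatives of Btg2 and Tob2, named after their values were seen, fell: Btg1 by 0.52 in wild type (limma, adjusted p = 0.0393) and Tob1 by 0.39 in the knockout (0.0483). Of 15 tested p53 targets, 2 rose and 1 fell in wild type, and 3 rose and 0 fell in the knockout. Trp53inp1 rose 4.43-fold and 4.10-fold, from 8.38 ± 0.31 to 10.5 ± 0.27 in wild type and from 8.53 ± 0.34 to 10.6 ± 0.33 in the knockout (SD, n = 3; limma, adjusted p = 2.70e-05 and 4.33e-05). Sesn1 rose by 0.76 and 0.77, Polk fell by 0.41 in wild type, and Phlda3 rose by 0.38 in the knockout. In the comparisons of genotype and in the interaction, 0 genes of these 4 lists passed the threshold (limma). Genes named for 1 genotype were thus not shown to respond differently. Per list, between 0 and 8 had an unadjusted p under 0.05. Of all genes 7.19% did under vehicle, 8.75% under dexamethasone, 10% averaged over treatments and 6.19% in the interaction. The 8 were among the 44 S phase genes, under dexamethasone. There the median differences were 0.10 (S phase), 0.08 (mitosis), 0.01 (G1) and 0.06 (p53), against 0.18 for the members.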

How the data were processed

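The authors deposited log2 intensities of 34760 probe sets for 12 arrays, and the submitters' processing notes name R 2.10.0 and affy. The background correction and normalization are not given in the sources used here. The deposited values ran from 0.927 to 13.5, and each sorted array lay within 0.215 of the mean sorted array. Symbols came from the platform annotation: 21640 probe sets had 1 symbol, 1321 several and 11799 none. Probe sets with several symbols or none were left out.

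From these values a linear model with 4 group means was fitted over the 12 arrays (limma 3.58.1, R 4.3.3, with data.table at version 1.17.8), with empirical Bayes moderation (8 residual and 5.07 prior degrees of freedom, median residual SD 0.143). The 7 contrasts were tested with Benjamini-Hochberg adjustment over 17904 genes and a threshold of 0.05. The number of arrays limits the precision. In simulated data of the wild-type dexamethasone comparison (17904 genes, 200 changed), 42% of log2 changes of 0.5 were called and 89.5% of changes of 1. The real comparison had 2064 calls. The adjustment is stricter where fewer genes change, so these shares need not hold for the real data.

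The members, the other gene lists and the tests were chosen with earlier results of these data known. Every member is accounted for; values in every array are given for members past the threshold and for Mki67, Top2a, Ccnd1, Cdk1 and Cdkn1b, and of each other cell cycle list up to 4 genes per comparison with the smallest p among those past the threshold. Other filters, scalings, probe set rules, array weights, a trended prior, the replicate number as a block and subsets of arrays were tried as alternatives. Promoters and motif words were read from RefSeq sequences (GRCm38.p6).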

Additional observations from a re-analysis of the deposited data

How the results depend on the processing

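Of the counts of members called under the alternatives, 139 stayed within 1.5 times the value given and 12 moved. The 139 include the counts for genotype and for the interaction, which were 0 and stayed 0. The 12 that moved were all for dexamethasone, so the 139 overstate how stable the dexamethasone counts were. With only the groups compared in the fit, 2 members passed in wild type and 1 in the knockout. Without the 4 arrays with pancreas transcripts the counts were 0 in wild type, 1 in the knockout and 2 in the average. Leaving out 1 array gave 2 to 5 in wild type (2 on leaving out array 1 or 2 of wild type with vehicle or array 1 of wild type treated), 0 to 4 in the knockout (0 without knockout vehicle 3, 1 without knockout dexamethasone 2 or 3, and 4 without knockout dexamethasone 1, where Ccne1 and Aurkb passed too) and 4 to 6 in the average. The comparisons of genotype and the interaction stayed at 0 members in every alternative run. Among values of single genes, 299 kept their direction and their side of the threshold, 37 lost a call and 2, neither called before, changed sign: the interaction of Cdk1 was -0.043 without knockout dexamethasone 2 (-0.043 to 0.38 over the arrays left out), and that of Cdkn1b -0.033 with the mean of its probe sets. Apart from the fits with fewer arrays or groups, the cause was not tested. With arrays centred on their medians, 6 members passed in wild type (1 higher; Mcm3 and Cdk4 were added), and 657 of 2208 calls over all genes were higher, against 819 of 2064. For genotype averaged over treatments, 22 genes passed with array weights and 29 with the replicate block, against 9.

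With the replicate number as a block, 4 members passed in wild type, 2 in the knockout and 5 in the average, as without it, and 0 in the other comparisons. The numbers were not shown to pair the animals. Of 18 pairs of arrays with the same number, the correlations of deviations from group means ran from -0.54 to 0.36, with 3 over 0.1. Of the 12 arrays, 1 correlated best with its own number. The check cannot exclude a pairing, since the 4 arrays with pancreas transcripts also enter these deviations.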
